A study of Mus musculus with 4 samples.

Results

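The clustered protocadherins are cell surface proteins of the cadherin superfamily, encoded by 3 neighbouring gene clusters, alpha, beta and gamma, on mouse chromosome 18. Here they are the protein-coding genes whose symbols begin with Pcdha, Pcdhb or Pcdhg followed by the member's number or C-type letter. The rule found 57 genes among 43346 gene entries: 14 alpha, 22 beta and 21 gamma. They lie on the plus strand of GRCm38 (mm10), the alpha genes from 36930184 to 37187661, the beta genes from 37264938 to 37524479 and the gamma genes from 37661793 to 37841873. Pcdhgb8 has a matching symbol but is annotated as a polymorphic pseudogene, and was counted beside the family and not in it.

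The tissues were 4 processes of the face, lateral nasal, medial nasal, maxillary and mandibular, which are the outgrowths that form the nose and the jaws. All were freshly dissected from WT mouse embryos at e11.5, 1 library per process, with all cell types mixed and no treatment. The label of the medial nasal sample carries the abbreviation of the lateral one beside its full name. Neither the strain nor how many embryos went into a library is given in the sources used. With 1 library per process no difference could be tested against replicates, no p-value is given, and every interval is a 95% interval that covers counting error alone.

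An alpha or gamma transcript is built from 1 variable exon, which encodes the extracellular part, spliced to constant exons that all members of the cluster share at their 3′ end. A beta gene is a single exon with no constant part. In neurons, single cells choose a few variable promoters each, with the help of the DNA-binding protein CTCF, the cohesin ring and DNA methylation, and the proteins bind copies of themselves on other cells, which lets a neuron tell its own branches from those of its neighbours. The C-type members, Pcdhac1, Pcdhac2, Pcdhgc3, Pcdhgc4 and Pcdhgc5, lie at the ends of the alpha and gamma clusters and are less subject to this choice. The facial processes at this stage are mostly neural crest mesenchyme under an epithelium.

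Levels between genes are compared as TPM, transcripts per 1000000 after correction for length. Levels between processes are compared as CPM, estimated counts scaled to a library of 1000000 counts. The total estimated counts came to 16163874 for lateral nasal, 13216161 for medial nasal, 15385124 for maxillary and 13680302 for mandibular tissue, and 3 counts, the limit that a count of 0 allows, corresponded to 0.185 to 0.223 CPM. The gene Hand2, a marker of the distal first arch, stood at 103 CPM in the mandibular library and at 1.32 CPM or less in the others. Prrx1, a marker of limb and facial mesenchyme, stood at 379 CPM in lateral nasal, 282 in medial nasal, 888 in maxillary and 864 in mandibular tissue.

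The gamma cluster held most of the family's RNA. Its members summed to 94.2 TPM (lateral nasal), 121 (medial nasal), 93.9 (maxillary) and 121 (mandibular). The beta cluster summed to 20.5 TPM in lateral nasal, 19.7 in medial nasal, 18.3 in maxillary and 20.6 in mandibular tissue. The alpha cluster was the lowest, with 4.1 TPM (lateral nasal), 5.07 (medial nasal), 3.0 (maxillary) and 3.61 (mandibular). Over the genes of a cluster, the mean level across the 4 libraries ranged from 1.16 to 30.5 TPM in gamma, with a median of 4.16 TPM. It ranged from 0.04 to 2.26 TPM in beta, with a median of 0.696 TPM, and from 0 to 2.03 TPM in alpha, with a median of 0.149 TPM.

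**Figure D1:**
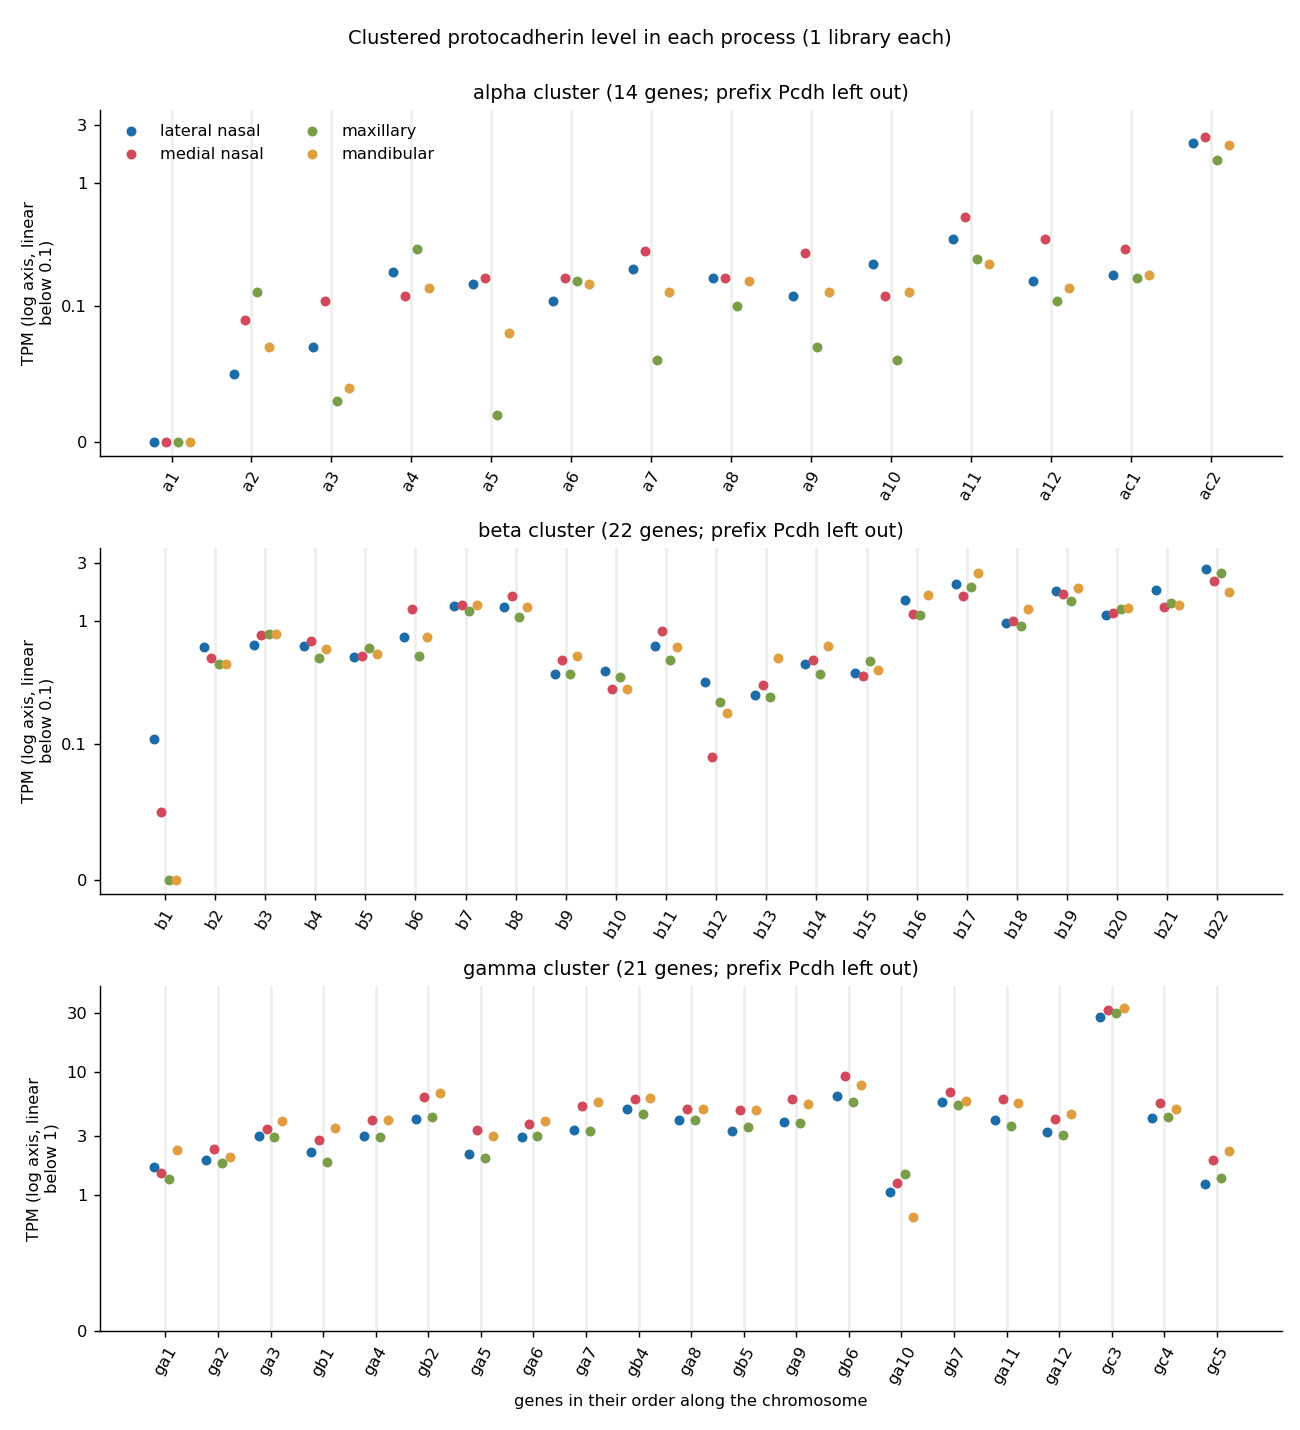
Level of each of the 57 clustered protocadherin genes in TPM (vertical axis, logarithmic above 0.1 TPM for alpha and beta and above 1 TPM for gamma, linear below), in the order of the genes along the chromosome, with 1 point for each of the 4 libraries. Pcdhac2 and Pcdhgc3 stand above the other members of their clusters in every library, and the profile over the genes is alike in the 4 processes for beta and gamma.

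Pcdhgc3, a C-type gene, was the most abundant member. It stood at 27.96 TPM in lateral nasal, 31.6 in medial nasal, 29.6 in maxillary and 32.8 in mandibular tissue. Its share of the summed gamma TPM was 29.7% (lateral nasal), 26.1% (medial nasal), 31.6% (maxillary) and 27.1% (mandibular). The next gamma gene by mean level, Pcdhgb6, stood at 6.28 TPM in lateral nasal, 9.16 in medial nasal, 5.66 in maxillary and 7.81 in mandibular tissue. In the alpha cluster another C-type gene, Pcdhac2, had the highest level, with 2.13 TPM (lateral nasal), 2.4 (medial nasal), 1.56 (maxillary) and 2.04 (mandibular). Its share of the alpha TPM was 51.95% in lateral nasal, 47.3% in medial nasal, 52% in maxillary and 56.5% in mandibular tissue. In the beta cluster the shares were smaller. Pcdhb22, the highest by mean level, held 13.02% (lateral nasal), 10.9% (medial nasal), 13.6% (maxillary) and 8.47% (mandibular) of the beta TPM, and in mandibular tissue Pcdhb17 stood above it, with 11.97%.

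Between the processes, the alpha sum was highest in the medial nasal library. It came to 24.7 CPM in lateral nasal, 31.3 in medial nasal, 18.5 in maxillary and 22.3 in mandibular tissue, from 402, 423, 281 and 301 counts. The medial nasal library stood 1.43-fold above the mean of the other 3 (1.28 to 1.603), and the maxillary library was at 0.709 of the mean of the others (0.622 to 0.808). The lateral nasal and mandibular sums differed from the mean of the other 3 by less than their counting error. In these bulk libraries, fewer cells of a type and less RNA per cell cannot be told apart.

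The beta sum varied least. It came to 102 CPM (lateral nasal), 96.5 (medial nasal), 94.9 (maxillary) and 106 (mandibular), from 1664, 1306, 1441 and 1432 counts. The mandibular library was 1.08-fold above the mean of the other 3 (1.02 to 1.15) and the maxillary library was at 0.933 of it (0.879 to 0.990). In the lateral and medial nasal libraries the intervals of this fold, 0.975 to 1.09 and 0.897 to 1.01, included 1. The lowest sum, in the maxillary library, was at 0.893 of the highest, in the mandibular library (0.829 to 0.961).

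The gamma sum split the libraries another way. It came to 453 CPM in lateral nasal, 589.9 in medial nasal, 479.6 in maxillary and 579 in mandibular tissue, from 7368, 7981, 7281 and 7795 counts. The medial nasal library was 1.17-fold above the mean of the other 3 (1.14 to 1.20) and the mandibular library 1.14-fold (1.11 to 1.17). The lateral nasal library was at 0.825 of that mean (0.804 to 0.847) and the maxillary library at 0.887 (0.864 to 0.911). Between the medial nasal and mandibular libraries the fold was 1.02 (0.988 to 1.05), within counting error. Without Pcdhgc3 the other 20 gamma genes summed to 318 CPM (lateral nasal), 436 (medial nasal), 325 (maxillary) and 419.9 (mandibular), with folds of 0.808, 1.23, 0.830 and 1.17 over the mean of the other libraries in the same order.

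**Figure D2:**
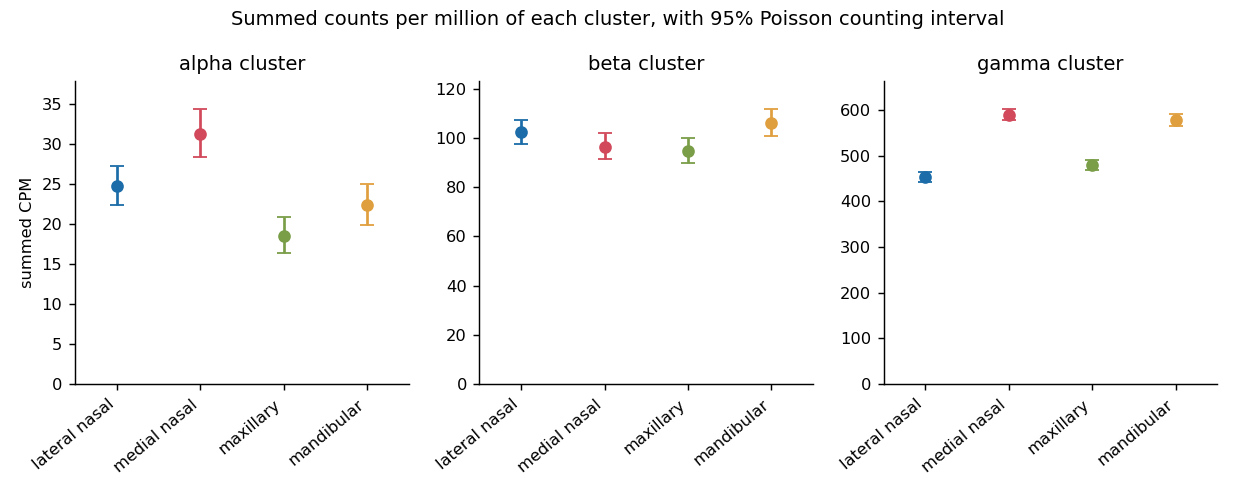
Summed CPM (vertical axis, from 0) of the alpha, beta and gamma genes in each of the 4 libraries, with the 95% Poisson interval for counting error as bars. The alpha sum lies between 18.5 CPM (maxillary) and 31.3 CPM (medial nasal), the beta sum from 94.9 to 106 CPM, and the gamma sum is higher in the medial nasal and mandibular libraries, at 589.9 and 579 CPM, than in the lateral nasal and maxillary libraries.

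The order of the libraries in the gamma cluster was shared by nearly all its genes. In 19 of 21 gamma genes the medial nasal and mandibular libraries were the 2 highest by CPM, an order looked for after the values had been seen. Among all 16146 genes that reached 1 CPM in any library, 22.7% had this order. The gamma genes share constant exons, so their counts are not separate measurements as those of most genes are. In Pcdhga2 the margin was narrow, 10.8 CPM (mandibular) against 10.2 CPM (lateral nasal). The same was true of Pcdhgb7, with 31.0 CPM (mandibular) against 29.9 CPM (maxillary). It was also true of Pcdhga1, with 7.02 CPM (medial nasal) against 6.65 CPM (lateral nasal). The gamma genes without this order were Pcdhgc3 and Pcdhga10. The same order held in 5 of 21 beta and 3 of 11 alpha genes that reached 1 CPM.

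The same pair of libraries also differed from the others over the whole transcriptome, and the part of this in the gamma result was not tested. Genes annotated as long intergenic noncoding RNA held 3.33% of the counts in the medial nasal and 3.83% in the mandibular library, against 2.61% in lateral nasal and 2.79% in maxillary tissue. Longer genes also stood higher in these libraries. Among the 20% of protein-coding genes with the longest transcripts, from 4340 bases upwards, 37.0% had the medial nasal and mandibular libraries as the 2 highest, against 4.99% among the shortest 20%, below 1606 bases. Of the 21 gamma genes, 13 were among the longest 20% and 7 among the next 20%. The 2303 longest genes had median log2 differences between a library and the mean of the other 3 of −0.06 (lateral nasal), 0.07 (medial nasal), −0.09 (maxillary) and 0.07 (mandibular). The gamma medians, −0.27, 0.28, −0.21 and 0.29 in the same order, had the same signs and were larger. When these longest genes set the scale of the libraries, a setting chosen with the values in view, the gamma sum was 1.11-fold above the mean of the others in the medial nasal and 1.09-fold in the mandibular library.

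**Figure D3:**
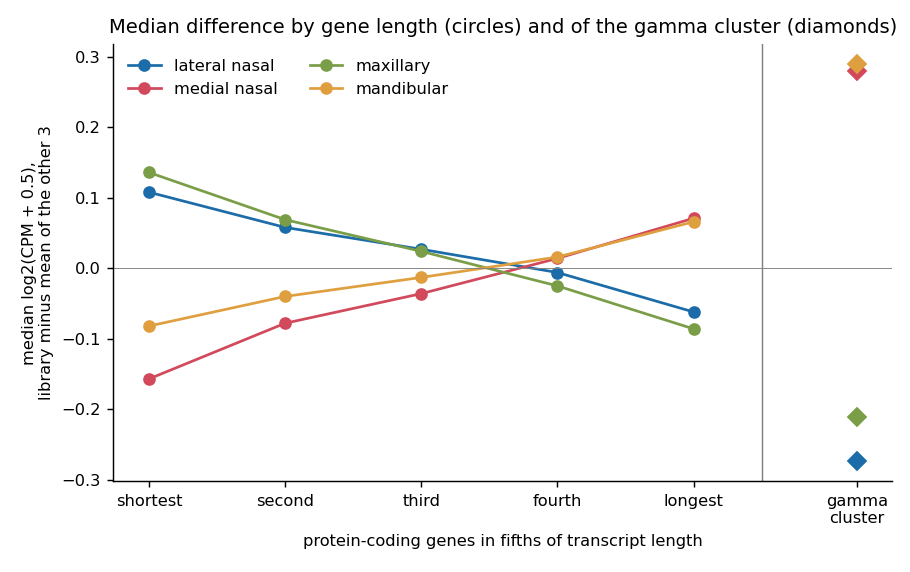
Median difference in log2(CPM + 0.5) between a library and the mean of the other 3 (vertical axis), for 5 equal groups of protein-coding genes ordered by transcript length (circles joined by lines) and for the 21 gamma genes (diamonds at right), in the 4 libraries. The lateral nasal and maxillary medians go down with length and the medial nasal and mandibular medians go up, and the gamma medians lie further out than those of the longest genes.

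No clustered protocadherin was called in any process. The call for a higher gene asked for 5 CPM or more and for 2 times the level of each other library, and the call for a lower gene for 5 CPM or more in each other library and for a level that each of them exceeded by 2 times or more. Of the 57 members, 32 reached 5 CPM in at least 1 library: Pcdhac2, 10 beta genes and all 21 gamma genes. The count of members called higher was 0 of 32 in each process, where the rule called 0.226% (lateral nasal), 1.17% (medial nasal), 0.234% (maxillary) and 0.951% (mandibular) of all genes with 5 CPM. For lower genes the count was 0 of 29 members, against 0.185%, 0.158%, 0.106% and 0.352% of all genes in the same order. When the nasal pair was set against the first arch pair, 0 members were called in either direction, against 1.1% of all genes higher in the nasal and 0.321% higher in the first arch libraries. At these backgrounds the counts of 0 are near the shares of all genes.

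No member with 5 CPM had its highest library 2-fold above its lowest, a looser measure chosen after the values had been seen. Among all genes with 5 CPM in at least 1 library, 10.6% had a highest library at least 2-fold above the lowest, and 0 of the 32 members did. Their highest library exceeded the lowest by 1.08-fold to 1.90-fold, with a median of 1.41-fold. At a minimum of 1 CPM, the median of this ratio was 1.496 over 53 members and 1.34 over all 16146 genes. By cluster it was 2.406 (alpha), 1.366 (beta) and 1.458 (gamma). The members thus lacked large ratios at 5 CPM, but a typical member was not more even than a typical gene. In 28 of the 32 the interval of the ratio of highest to lowest library lay above 1. Both libraries were picked for their rank, so these intervals exclude 1 more often than for a pair fixed beforehand. They also leave out the division of reads between genes. The same limits hold for such intervals of single genes below. Against the next library, the interval of the highest lay above 1 in 2 of the 32, Pcdhgb6 and Pcdhgb7, both in the medial nasal library. No share over all genes is given beside these 2 counts of intervals, so they do not set the members apart from other genes.

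Over the 53 members with 1 CPM in at least 1 library, the median difference in log2(CPM + 0.5) between a library and the mean of the other 3 was −0.16 (lateral nasal), 0.20 (medial nasal), −0.22 (maxillary) and 0.08 (mandibular). The same median over all 16146 such genes was within 0.012 of 0 in every library. By cluster, the alpha medians were 0.07, 0.52, −0.42 and −0.13 over 11 genes, in the same order of processes. Several of these genes, named below, reached 1 CPM in the medial nasal library alone, so the minimum itself favours a high alpha median there. Over 13 other settings, among them no minimum, the medial nasal alpha median was 0.29 to 0.65. The beta medians were −0.03, −0.04, −0.09 and 0.01 over 21 genes. Under the other scalings and settings the gamma signs held in all 4 libraries. The alpha signs held in all but the mandibular library, where 1 of 13 settings, which left Pcdhac2 alone, turned the sign. The beta sign turned in 2 settings for the lateral nasal and in 5 for the mandibular library.

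**Figure D4:**
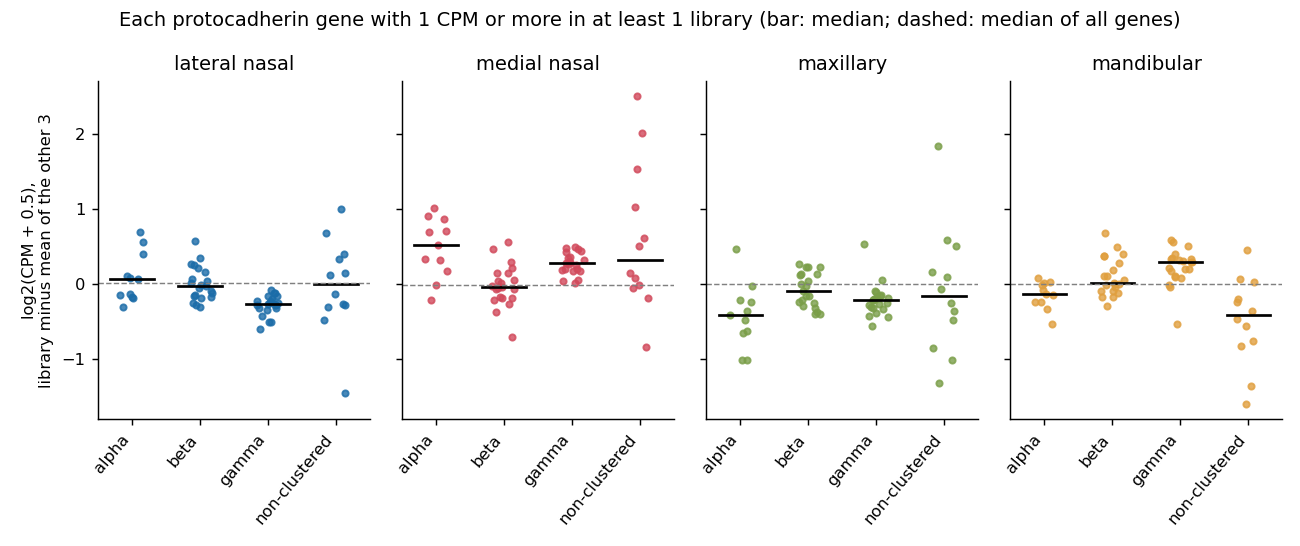
Difference in log2(CPM + 0.5) between a library and the mean of the other 3 (vertical axis) for each alpha, beta, gamma and non-clustered protocadherin gene with 1 CPM in at least 1 library, in 1 panel per process, with the median of each list as a bar and that of all genes as a dashed line. The 21 gamma genes lie close together, with medians of −0.27, 0.28, −0.21 and 0.29, and the non-clustered genes spread most widely.

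The alternate genes of the alpha cluster, Pcdha1 to Pcdha12, were near the limit of detection. Of the 14 alpha genes, 9 had a mean below 1 CPM, and Pcdha1 was listed at 0 in all libraries. The 12 alternate genes together summed to 9.48 CPM in lateral nasal, 13.2 in medial nasal, 6.59 in maxillary and 7.42 in mandibular tissue, from 154, 179, 100 and 100 counts. The medial nasal sum was 2.01-fold above the maxillary sum (1.56 to 2.59) and 1.78-fold above the mandibular sum (1.39 to 2.30).

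Of these genes, Pcdha11 had the highest mean, with 1.42 CPM (lateral nasal), 2.14 (medial nasal), 1.12 (maxillary) and 0.891 (mandibular). Pcdha12 had 0.923 CPM in lateral nasal, 2.14 in medial nasal, 0.724 in maxillary and 0.817 in mandibular tissue. Both nasal libraries lay above both first arch libraries in these 2 genes, by a narrow margin between the lateral nasal and mandibular libraries for Pcdha12. Pcdha7 had 1.23 CPM (lateral nasal), 1.7 (medial nasal), 0.329 (maxillary) and 0.742 (mandibular), and its highest library was 5.16-fold (95% interval 1.92 to 17.4) above its lowest. Pcdha5 had 0.923 CPM in lateral nasal, 1.03 in medial nasal, 0.132 in maxillary and 0.445 in mandibular tissue, from 15 counts (lateral nasal), 14 (medial nasal), 2 (maxillary) and 6 (mandibular). The maxillary library was the lowest in both, and with 2 counts for Pcdha5 there the ratio of 7.86-fold (95% interval 1.804 to 71.2) is loosely fixed.

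The other alternate genes, apart from Pcdha1, stood between 0.198 and 1.63 CPM. Pcdha9 had 0.739 CPM in lateral nasal, 1.63 in medial nasal, 0.461 in maxillary and 0.742 in mandibular tissue. Pcdha10 had 1.29 CPM (lateral nasal), 0.739 (medial nasal), 0.395 (maxillary) and 0.742 (mandibular). Pcdha9 was highest in the medial nasal and Pcdha10 in the lateral nasal library, with the maxillary library lowest in both. Pcdha3, Pcdha6 and Pcdha8 were highest in the medial nasal library, at 0.665, 1.03 and 1.03 CPM, within counting error of their lowest library. Pcdha2 and Pcdha4 were the exceptions, highest in the maxillary library at 0.724 and 1.05 CPM, and the intervals of their ratios of highest to lowest, 0.754 to 8.64 and 0.720 to 4.81, included 1. On the scale of log2(CPM + 0.5), the members furthest above the mean of the other libraries in the medial nasal library were Pcdha12 at 1.003, Pcdha9 at 0.90 and Pcdha7 at 0.86, and those furthest below it in the maxillary library were Pcdha7 at −1.02, Pcdha5 at −1.01 and Pcdha10 at −0.65. With a minimum of 1 CPM in place of 5, Pcdha9 and Pcdha12 were called higher in the medial nasal process, 2 of 53 members, against 2.21% of all genes.

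Counting the order of the libraries over the 11 alpha genes with 1 CPM, 9 were highest in the medial nasal and 8 lowest in the maxillary library. The shares of all genes were 25.5% and 22.9%. Pcdha5, Pcdha6, Pcdha8, Pcdha9 and Pcdha12 reached 1 CPM in the medial nasal library alone. The minimum thus favoured genes high there, and the comparison with all genes cannot show more than this choice. Both nasal libraries exceeded both first arch libraries in 6 of these 11 genes, against 16.8% of all genes, and the reverse held in 1, against 15.5%. The genes share the constant exons, so their counts are not separate measurements. The C-type gene Pcdhac1 had 1.11 CPM in lateral nasal, 1.77 in medial nasal, 1.05 in maxillary and 1.11 in mandibular tissue. Pcdhac2, used by serotonergic neurons, had 14.2 CPM (lateral nasal), 16.3 (medial nasal), 10.9 (maxillary) and 13.8 (mandibular). Its highest library was 1.496-fold (95% interval 1.22 to 1.84) above its lowest, and both nasal libraries lay above both first arch libraries, narrowly so between the lateral nasal and mandibular libraries.

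Markers of neural cells were high in the same library as the alpha genes, and their part in that result was not tested. The 10 neuron markers, which include the tubulin gene Tubb3 and the neuronal migration gene Dcx, summed to 199 CPM in lateral nasal, 381 in medial nasal, 184 in maxillary and 97.8 in mandibular tissue. Of these, 9 reached 1 CPM, and 7 of the 9 were highest in the medial nasal library. Tubb3 stood at 102 CPM (lateral nasal), 170 (medial nasal), 85.95 (maxillary) and 29.7 (mandibular). The 5 markers of neural progenitors, among them Nes, Sox2 and Pax6, summed to 174 CPM in lateral nasal, 305 in medial nasal, 153 in maxillary and 163 in mandibular tissue. The progenitor sums had the order of the alpha sums in all 4 libraries, but most of the single markers did not. Of the 5, 3 were lowest in the mandibular and 1 in the maxillary library. Their median log2 difference from the mean of the other libraries was −1.32 (mandibular) and −0.82 (maxillary), where the alpha genes had the lower median in the maxillary library. The neuron sums had another order in the first arch: the maxillary library had the higher neuron sum, 184 CPM against 97.8 CPM in the mandibular library, and the lower alpha sum, 18.5 CPM against 22.3 CPM in the mandibular library.

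None of the other marker lists had the order of the alpha sums. The 6 epithelial markers, with the adhesion genes Epcam and Cdh1, summed to 279 CPM (lateral nasal), 255 (medial nasal), 178 (maxillary) and 156 (mandibular). The 4 muscle markers, with the muscle factor genes Myog and Myod1, summed to 3.02 CPM in lateral nasal, 2.22 in medial nasal, 27.5 in maxillary and 101 in mandibular tissue. The 4 endothelial markers, with Cdh5 and Kdr, summed to 194 CPM (lateral nasal), 210.1 (medial nasal), 207 (maxillary) and 234 (mandibular). This list, like the gamma genes, had the mandibular and medial nasal libraries as the 2 highest, but its medial nasal and maxillary sums were within counting error of each other (fold 1.02, 0.966 to 1.07) and 2 of its 4 genes had this order. Its part in the gamma result was not tested. The 5 mesenchyme markers, with the growth factor receptor gene Pdgfra and the transcription factor genes Prrx1, Twist1 and Msx1, summed to 1515 CPM in lateral nasal, 1204 in medial nasal, 1974 in maxillary and 1878 in mandibular tissue.

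The beta genes, whose sum varied least between the processes, were low. The abundant ones lay in the second part of the cluster. Pcdhb19 had 14.4 CPM (lateral nasal), 13.7 (medial nasal), 12.4 (maxillary) and 15.4 (mandibular). Pcdhb22, the last gene, had 14.5 CPM in lateral nasal, 11.2 in medial nasal, 14.2 in maxillary and 10.7 in mandibular tissue. Pcdhb17 had 10.5 CPM (lateral nasal), 8.57 (medial nasal), 10.5 (maxillary) and 13.1 (mandibular). Pcdhb22 was highest in the lateral nasal library, 1.35-fold (95% interval 1.09 to 1.68) above the mandibular one, while Pcdhb17 was highest in the mandibular library, 1.52-fold (95% interval 1.199 to 1.94) above the medial nasal one. Pcdhb16 had 8.74 CPM in lateral nasal, 6.87 in medial nasal, 6.92 in maxillary and 9.799 in mandibular tissue. Pcdhb21 had 9.54 CPM (lateral nasal), 7.096 (medial nasal), 7.77 (maxillary) and 7.35 (mandibular). These 5 genes peaked in different processes, with ratios of highest to lowest library of 1.24 to 1.52.

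Pcdhb18 had 5.48 CPM in lateral nasal, 5.84 in medial nasal, 5.47 in maxillary and 7.35 in mandibular tissue. Pcdhb7, in the first part of the cluster, had 5.23 CPM (lateral nasal), 5.32 (medial nasal), 4.94 (maxillary) and 5.34 (mandibular), and its ratio of highest to lowest library, 1.08-fold (95% interval 0.772 to 1.52), was the smallest of the members with 5 CPM. Pcdhb20 had 4.43 CPM in lateral nasal, 4.73 in medial nasal, 5.27 in maxillary and 5.196 in mandibular tissue. The intervals of the ratio of highest to lowest library included 1 for all 3. Pcdhb14 had 4.49 CPM (lateral nasal), 4.88 (medial nasal), 3.89 (maxillary) and 6.38 (mandibular). Pcdhb8 had 4.801 CPM in lateral nasal, 5.03 in medial nasal, 3.36 in maxillary and 4.01 in mandibular tissue. In Pcdhb14 the mandibular library was the highest, 1.64-fold (95% interval 1.17 to 2.33) above the maxillary one, and in Pcdhb8 the medial nasal library was, 1.496-fold (95% interval 1.02 to 2.19) above the maxillary one.

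The remaining beta genes stayed below 5 CPM in every library. Pcdhb6 had 2.71 CPM (lateral nasal), 3.92 (medial nasal), 2.31 (maxillary) and 2.52 (mandibular). Pcdhb11 had 3.14 CPM in lateral nasal, 4.21 in medial nasal, 2.503 in maxillary and 3.12 in mandibular tissue. In both, the medial nasal library was the highest and the maxillary the lowest, with ratios of 1.699-fold (95% interval 1.09 to 2.68) and 1.68-fold (95% interval 1.097 to 2.61). Pcdhb3 had 2.71 CPM (lateral nasal), 3.33 (medial nasal), 3.49 (maxillary) and 3.41 (mandibular). Pcdhb4 had 2.58 CPM in lateral nasal, 2.88 in medial nasal, 2.17 in maxillary and 2.52 in mandibular tissue. Pcdhb5 had 1.97 CPM (lateral nasal), 2.07 (medial nasal), 2.503 (maxillary) and 2.15 (mandibular). In these 3 genes the libraries differed by less than counting error. Pcdhb2 had 1.23 CPM in lateral nasal, 1.55 in medial nasal, 1.45 in maxillary and 1.41 in mandibular tissue. Pcdhb9 had 1.23 CPM (lateral nasal), 1.63 (medial nasal), 1.32 (maxillary) and 1.78 (mandibular). Pcdhb13 had 1.05 CPM in lateral nasal, 1.26 in medial nasal, 1.05 in maxillary and 2.08 in mandibular tissue. Only in Pcdhb13 of these 3 did the interval of the ratio of highest to lowest library, 1.99-fold (95% interval 1.05 to 3.87), leave out 1. Its highest library was the mandibular.

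Pcdhb15 had 1.17 CPM (lateral nasal), 1.11 (medial nasal), 1.51 (maxillary) and 1.26 (mandibular). Pcdhb10 had 1.23 CPM in lateral nasal, 0.887 in medial nasal, 1.12 in maxillary and 0.891 in mandibular tissue. Both had intervals that included 1. Pcdhb12 had 1.05 CPM (lateral nasal), 0.296 (medial nasal), 0.79 (maxillary) and 0.594 (mandibular), with the lateral nasal library 3.54-fold (95% interval 1.15 to 14.5) above the medial nasal one, and its count was among the uncertain ones. Pcdhb1, the first gene of the cluster, was the lowest, with 5 and 2 counts in the lateral and medial nasal libraries and 0 in the maxillary and mandibular libraries. Over the 21 beta genes with 1 CPM, 4 had both nasal libraries above both first arch libraries and 5 had the reverse, close to the shares of all genes.

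The gamma genes all had at least 4.53 CPM in every library. Among the A-type genes, Pcdhga8 had 21.5 CPM in lateral nasal, 27.1 in medial nasal, 22.3 in maxillary and 27.1 in mandibular tissue. Pcdhga11 had 21.6 CPM (lateral nasal), 32.7 (medial nasal), 20.3 (maxillary) and 30.2 (mandibular). Pcdhga9 had 16.8 CPM in lateral nasal, 25.1 in medial nasal, 16.9 in maxillary and 22.4 in mandibular tissue. In these 3 the medial nasal and mandibular libraries stood above the other 2, and for Pcdhga8 by 1.26-fold (95% interval 1.09 to 1.47) between the highest and the lowest. Pcdhga12 had 16.3 CPM (lateral nasal), 21.1 (medial nasal), 16.1 (maxillary) and 23.5 (mandibular). Pcdhga6 had 15.8 CPM in lateral nasal, 20.1 in medial nasal, 16.6 in maxillary and 21.4 in mandibular tissue. Pcdhga3 had 15.8 CPM (lateral nasal), 18.3 (medial nasal), 16.2 (maxillary) and 21.5 (mandibular). Each of these was highest in the mandibular library, with the medial nasal library next.

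Pcdhga4 had 15.8 CPM in lateral nasal, 21.6 in medial nasal, 16 in maxillary and 18.7 in mandibular tissue. Pcdhga7 had 11.8 CPM (lateral nasal), 18.6 (medial nasal), 12.9 (maxillary) and 20.3 (mandibular). Pcdhga5 had 11.3 CPM in lateral nasal, 17.8 in medial nasal, 10.9 in maxillary and 16.04 in mandibular tissue. Pcdhga7 spread most of these, 1.73-fold (95% interval 1.43 to 2.09) between the mandibular and the lateral nasal library. Pcdhga2 had 10.2 CPM (lateral nasal), 12.5 (medial nasal), 10.01 (maxillary) and 10.8 (mandibular). Pcdhga1, the first gene of the cluster, had 6.65 CPM in lateral nasal, 7.02 in medial nasal, 5.99 in maxillary and 8.39 in mandibular tissue. Pcdhga10 had 5.601 CPM (lateral nasal), 6.8 (medial nasal), 8.23 (maxillary) and 4.53 (mandibular). Pcdhga10 stood apart from its neighbours, lowest in the mandibular and highest in the maxillary library by 1.82-fold (95% interval 1.33 to 2.51), an interval that leaves out the division of shared reads. It had the least precise count of the gamma genes relative to its level, and RSEM's intervals of its TPM, 0.245 to 1.62 in the mandibular and 0.781 to 1.92 in the maxillary library, overlapped.

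All 6 B-type genes had the medial nasal and mandibular libraries as the 2 highest. Pcdhgb6 had 32.99 CPM in lateral nasal, 49.1 in medial nasal, 31.2 in maxillary and 41.8 in mandibular tissue. Pcdhgb7 had 29.9 CPM (lateral nasal), 36.8 (medial nasal), 29.9 (maxillary) and 30.96 (mandibular). The medial nasal library was the highest in both, and in Pcdhgb7 the other 3 libraries lay close together. Pcdhgb4 had 21.6 CPM in lateral nasal, 25.8 in medial nasal, 21.01 in maxillary and 26.1 in mandibular tissue. Pcdhgb5 had 17.1 CPM (lateral nasal), 25.5 (medial nasal), 19.3 (maxillary) and 25.7 (mandibular). Pcdhgb2 had 13.6 CPM in lateral nasal, 22.5 in medial nasal, 15.6 in maxillary and 21.2 in mandibular tissue. In these 3 genes the 2 highest libraries were within counting error of each other. Pcdhgb1 had 9.72 CPM (lateral nasal), 12.9 (medial nasal), 8.23 (maxillary) and 15.1 (mandibular), and its ratio of highest to lowest library was 1.84-fold (95% interval 1.47 to 2.32). The pseudogene Pcdhgb8, not a member, had 13.1 CPM in lateral nasal, 22.2 in medial nasal, 13.2 in maxillary and 23.01 in mandibular tissue.

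The gamma C-type genes differed among themselves. Pcdhgc3 had 136 CPM (lateral nasal), 154 (medial nasal), 155 (maxillary) and 159 (mandibular), and the lateral nasal library was the lowest, with the mandibular one 1.17-fold (95% interval 1.102 to 1.24) above it. Pcdhgc3 was the only gamma gene in which both first arch libraries exceeded both nasal libraries, and between the maxillary and the medial nasal library the gap was less than 1 CPM, within counting error. Pcdhgc4 had 16.5 CPM in lateral nasal, 22.5 in medial nasal, 18.3 in maxillary and 20.1 in mandibular tissue. Pcdhgc5, the last gene, had 7.45 CPM (lateral nasal), 12.1 (medial nasal), 8.89 (maxillary) and 14.2 (mandibular). Its ratio of highest to lowest library, 1.904-fold (95% interval 1.51 to 2.41), was the largest of all members with 5 CPM.

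Along the chromosome, levels tended to be higher towards the 3′ end of each cluster. Across the 12 alternate alpha genes, Spearman's rho between the order of the genes and their TPM was 0.713 (lateral nasal), 0.832 (medial nasal), 0.298 (maxillary) and 0.691 (mandibular). Across the 22 beta genes it was 0.442 to 0.566, and across the 18 A-type and B-type gamma genes 0.443 to 0.548. The profile of levels over the genes was alike between processes, with rho from 0.934 to 0.964 for beta and from 0.948 to 0.985 for gamma over the 6 pairs of libraries, and lower for alpha, from 0.334 to 0.735. These are descriptions across genes, which share a library, constant exons and similar length, and the low alpha counts limit the likeness they could show.

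How firmly each member was counted depended on its cluster. RSEM, the program the authors used, divides reads that match several genes, and reports both an expected count and the mean of a posterior distribution with its SD. A count was called uncertain where posterior mean and expected count were 10% or more apart in any library. This held for 8 of the 57 members, against 5.5% of all genes with a count and 2.89% of protein-coding genes. The 8 were 7 of the 14 alpha genes, 1 of the 22 beta genes and 0 of the 21 gamma genes.

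The 7 alpha genes were Pcdha1, Pcdha2, Pcdha3, Pcdha4, Pcdha5, Pcdha6 and Pcdha11. Pcdha11 was off in 3 libraries, with posterior means of 25.9, 32.0, 19.6 and 14.7 counts and expected counts of 23.4, 29.5, 16.8 and 12.4, in the order lateral nasal, medial nasal, maxillary and mandibular. Pcdha4 was off in the lateral nasal library, with 10.8 posterior and 9.76 expected counts, and in the mandibular library, with 10.8 and 8.59. Pcdha1 had an expected count of 0 in every library and posterior means of 1.02 to 1.37 counts, so its level cannot be told from that of a gene with a few reads. Pcdha2, Pcdha3, Pcdha5 and Pcdha6 were off in 1 or 2 libraries at expected counts of 1.69 to 9.57. The beta gene was Pcdhb12, in the medial nasal library, with 4.78 posterior and 3.92 expected counts.

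Where at least 10 expected counts were required, Pcdha11 alone remained. Summed over a cluster, the posterior mean was within 0.765% of the expected count in every library. With the 8 genes left out, none of the cluster folds over the mean of the other libraries left its counting interval.

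Shared sequence differed between the clusters in the same direction as the precision. Of the 50-base words of a member's transcripts, 50 bases being the read length, a median of 39.9% were found in no other gene on the same strand for alpha genes, with a range of 9.94 to 55.99%. The median was 55.6% for gamma genes (34.7 to 68.1%) and 95.5% for beta genes (88.01 to 100%). The lowest was Pcdha4, of whose words 40.6% also lie in Gm42416, a gene model that runs from the alpha to the gamma cluster and had at most 4.87 expected counts. The posterior SD was, as a median over the genes with a count, 17.4 to 26.2% of the posterior mean for alpha, 2.93 to 4.02% for gamma and 0% for beta genes, over the 4 libraries. The alpha genes also had the lowest counts. Pcdhac2, with the highest count of the alpha genes and 51.8% of its words unique, above the alpha median, lay among the gamma genes.

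**Figure D5:**
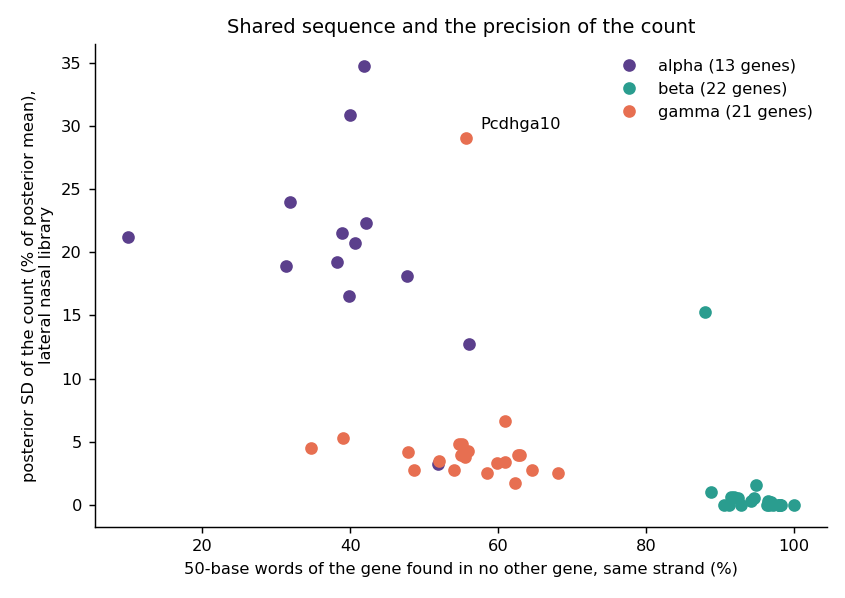
Posterior SD of the count in the lateral nasal library, in percent of the posterior mean (vertical axis), against the percent of a gene's 50-base words found in no other gene on the same strand (horizontal axis), with 1 point for each alpha, beta or gamma gene with a count. The alpha genes other than Pcdhac2 lie high, the beta genes other than Pcdhb12 lie near 0 at words mostly their own, and Pcdhga10 stands above the other gamma genes.

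Pcdhga10 was the exception among gamma genes. Its posterior SD was 26.6 (lateral nasal), 23.96 (medial nasal), 23.4 (maxillary) and 27.4 (mandibular) counts, beside expected counts of 91.0, 91.5, 125 and 61.1. On its own strand 55.6% of its words were unique, close to the gamma median, but 54.8% lie on the opposite strand in Gm26672, a noncoding gene with 225 to 409 expected counts, and counting both strands 1.03% were unique. Gm26672 stood at 18.6 CPM in lateral nasal, 27.1 in medial nasal, 14.8 in maxillary and 30.4 in mandibular tissue, so that the library with its highest level, the mandibular, was the one with the lowest level of Pcdhga10, and the library with its lowest level, the maxillary, was the one with the highest. The kit keeps strand, but whether the counting used it is given in none of the sources used, and whether reads of the 2 genes were told apart was not tested. Pcdhb12 has 62.9% of its words on the opposite strand in Gm37446, Pcdha11 has 32.2% in Gm10545, and Pcdhgc3 has 27.5% in BC037039. Pcdhga11 has 28.3% and Pcdhgb7 has 15.5% in Gm26672, whose 2 highest libraries were the mandibular and medial nasal, as in most gamma genes. The values of these genes carry the same limit, and some other members have smaller shares. BC037039 stood at 9.23 CPM (lateral nasal), 17.96 (medial nasal), 13.7 (maxillary) and 15.5 (mandibular).

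Protocadherins outside the clusters have their own genes elsewhere and no constant exons to share. Their counts were firmer than those of the alpha genes. A 2-fold spread between libraries was more frequent among them than among the clustered members. Of 12 such genes 0 had an uncertain count, beside 0 of 21 gamma, 1 of 22 beta and 7 of 14 alpha genes, and 11 of the 12 reached 5 CPM. Calls were made for 3 of them, Pcdh10, Pcdh11x and Pcdh15, which are given because they were called. The rule called 0.234% of all genes with 5 CPM higher in the maxillary and 1.17% higher in the medial nasal process. Pcdh10, a cell adhesion protein, was higher in the maxillary process, with 39.8 CPM in lateral nasal, 55.1 in medial nasal, 223 in maxillary and 108 in mandibular tissue. Pcdh11x and Pcdh15, the second a component of the hair cells of the inner ear, were higher in the medial nasal process. Pcdh11x had 13.6 CPM (lateral nasal), 35.6 (medial nasal), 12.2 (maxillary) and 10.5 (mandibular). Pcdh15 had 3.26 CPM in lateral nasal, 12.4 in medial nasal, 1.58 in maxillary and 1.04 in mandibular tissue. The highest library was at least 2-fold above the lowest in 5 of the 11, also in Pcdh19 and Pcdh20, where it was so in 0 of 32 clustered members and 10.6% of all genes. Of the 32 members, 21 are gamma genes, whose counts are not separate measurements.

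Per length, the clustered and non-clustered genes summed to levels of the same order. The 57 clustered genes summed to 119 TPM (lateral nasal), 146 (medial nasal), 115 (maxillary) and 145 (mandibular), and the 12 non-clustered genes to 177 TPM in lateral nasal, 173 in medial nasal, 183 in maxillary and 142 in mandibular tissue. Pcdh18, the most abundant of them, alone stood at 100.05 TPM (lateral nasal), 81.8 (medial nasal), 77.1 (maxillary) and 72.9 (mandibular), above Pcdhgc3 in every library. Pcdh7 stood at 19.1 TPM in lateral nasal, 29.4 in medial nasal, 23.1 in maxillary and 18.3 in mandibular tissue, below Pcdhgc3 in every library. Pcdh19, mutated in a human epilepsy, had 122 CPM (lateral nasal), 75.7 (medial nasal), 63.3 (maxillary) and 47.1 (mandibular).

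Genes known to act on the clusters in neurons were expressed in all 4 libraries. The 11 genes of CTCF and cohesin, with Smc1a, Rad21 and Smc3 for the ring and Nipbl for its loading, summed to 2687 CPM in lateral nasal, 2667 in medial nasal, 2671 in maxillary and 2852 in mandibular tissue. None was called in any process, and the median ratio of highest to lowest library was 1.12. Ctcf itself had 182 CPM (lateral nasal), 177 (medial nasal), 184 (maxillary) and 191 (mandibular). The 8 genes of DNA and histone methylation, with the DNA methyltransferases Dnmt1 and Dnmt3a, Ehmt1 and Smchd1, summed to 1887 CPM in lateral nasal, 1828 in medial nasal, 2052 in maxillary and 2116 in mandibular tissue, with 0 calls and a median ratio of 1.19. Their medial nasal sum was at 0.864 of the mandibular sum (0.850 to 0.879). Dnmt3b, which methylates alternate promoters, had 31.9 CPM (lateral nasal), 32.5 (medial nasal), 27.8 (maxillary) and 22.4 (mandibular). Wiz, a zinc finger partner of the histone methyltransferases Ehmt1 and Ehmt2, had 36.8 CPM in lateral nasal, 58.9 in medial nasal, 44.4 in maxillary and 60.5 in mandibular tissue.

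Of 13 genes for signalling and shedding partners, such as the kinases Ptk2 and Fyn, the actin regulators Cyfip1 and Nckap1, the protease Adam10 and the membrane-associated Marcks, 12 reached 5 CPM and 1 was called, the receptor kinase gene Ret, named after its values were seen, higher in the lateral nasal process with 9.601 CPM (lateral nasal), 4.51 (medial nasal), 0.659 (maxillary) and 1.19 (mandibular). Ptk2, a focal adhesion kinase that alpha and gamma proteins inhibit in neurons, had 149.7 CPM in lateral nasal, 149 in medial nasal, 153 in maxillary and 152 in mandibular tissue. Of 12 genes beside the clusters on the same chromosome, such as Ik, Hdac3, Zmat2 and Hars, 10 reached 1 CPM and 0 were called. The medial nasal and mandibular libraries were highest in 1 of the 10, against 22.7% of all genes. Among the gamma genes, whose counts are not separate measurements, this held in 19 of 21. Their summed level was 627 CPM (lateral nasal), 577 (medial nasal), 646 (maxillary) and 589 (mandibular). Taf7, between the beta and gamma clusters, had 48.1 CPM in lateral nasal, 40.9 in medial nasal, 46.1 in maxillary and 42.5 in mandibular tissue.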

How the data were processed

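RNA was measured by stranded, ribosome-depleted total RNA sequencing with single-end 50-base reads, in 1 library per process. Per the labels and file headers, the authors used the ENCODE long RNA pipeline: STAR, then RSEM, on mm10 with GENCODE M4. The deposited values used were the expected counts, the posterior mean counts with their SD and the TPM that RSEM estimated per gene. The FPKM values that the authors deposited beside them, RSEM's estimates per kilobase, were not used here. RSEM divides reads shared by several genes, so counts of genes with common exons depend on each other. Entries for spike-ins, with 0 counts, and numbered entries that name no gene were left out.

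Symbols, gene types and positions came from GENCODE M21 on GRCm38, the same assembly. 1 alpha gene that shares the symbol Pcdha11 there was named Pcdha10 from the RefSeq names in the same annotation. The expected counts were rounded to whole numbers. CPM were these counts over the library total times the TMM factor (edgeR 4.0.16), with factors of 0.985 to 1.02. With 1 library per process no test was run, and edgeR served for scaling only. Intervals were exact Poisson or Clopper-Pearson intervals at 95%, for counting error alone; reads carried no molecular identifiers. Log2 differences used CPM plus 0.5. Lists counted genes with at least 1 CPM in 1 library or more, and calls required 5 CPM and a 2-fold difference. The steps were tested on simulated data.

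Members with a mean of at least 1 CPM, those of uncertain count, the C-type genes and the 3 largest and 3 smallest differences per process were named, with up to 4 abundant genes per other list. The members and lists were chosen with earlier results of these data known. Alternatives covered the scaling (library totals, DESeq2 1.42.0 size factors, TPM, the longest 20% of genes, protein-coding genes), posterior mean and unrounded counts, the minimum, the fold, the pseudocount and leaving out members of uncertain count. The values of 1 marker gene are not reported here.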

Additional observations from a re-analysis of the deposited data

How the results depend on the processing

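No setting turned a call round. The sign turned for list medians near 0. The mandibular alpha median, −0.13, was 0.02 with a minimum of 5 CPM, which left 1 gene, Pcdhac2. The lateral nasal beta median ranged from −0.06 to 0.04 and turned in 2 of 13 settings, and the mandibular beta median ranged from −0.04 to 0.14 and turned in 5 of 13. Of 108 folds between a cluster sum and the mean of the other libraries, 101 stayed within the counting interval. The 7 others were gamma folds. With the longest 20% of protein-coding genes setting the scale, chosen after seeing the data, the gamma fold was 0.863 (lateral nasal), 1.11 (medial nasal), 0.943 (maxillary) and 1.09 (mandibular), and the maxillary gamma median was −0.13. With library totals the medial nasal gamma fold was 1.21, and in TPM the gamma fold was 0.838 (maxillary) and 1.17 (mandibular). The cause was not tested. Of 156 list medians, 155 stayed within an interval set by the spread of the list's members, the TPM ones at a minimum of 0.2 TPM. With a minimum of 1 CPM, 2 members were called higher in a process, and under every other setting run 0 were called higher, lower or between nasal and first arch processes. Members of uncertain count numbered 4 at a difference of 20%, 1 with at least 10 expected counts and 3 where the posterior SD exceeded the square root of the count. At a difference of 5% there were more than at 10%. Among the added ones were the gamma genes Pcdhga1 and Pcdhga10, off by 6.29% and 8.0% in the mandibular library. The Pcdhac2 share was 45.8% (lateral nasal), 42.4% (medial nasal), 44.4% (maxillary) and 48.3% (mandibular) from posterior TPM, and 57.2% (lateral nasal) and 58.7% (maxillary) from counts, and here too the cause was not tested. No paired analysis was possible because each process had 1 library, and for the same reason no replicate could be left out. Depth limited the alternate alpha genes, where 1 CPM corresponded to 13.5 to 16.2 counts.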
